A study of Mus musculus with 6 samples.

Results

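The genes described here encode CXC chemokines, small secreted or membrane-anchored proteins that direct the movement of leukocytes. They were chosen by gene symbol: Cxcl1, Cxcl2, Cxcl3, Cxcl5, Cxcl9, Cxcl10, Cxcl12 and Cxcl16, which are 8 of the 23337 genes in the deposited count table. All 8 had counts in each library and all 8 passed the filter on low counts. RNA was sequenced from primary sinusoidal endothelial cells of mouse liver, grown on collagen IV, deprived of serum and then either stretched or left unstretched. The 3 stretch libraries (replicates 1, 2 and 4) came from cells on Flexcell plates, whose flexible floor was cyclically stretched by 4% at 1 Hz, and the 3 control libraries (replicates 2, 3 and 4) came from unstretched cells. Both groups shared the immunomagnetic isolation, the collagen IV coating and the serum starvation. No source used here gives the duration of stretch or the strain, sex and age of the mice, or says whether the replicates came from separate animals or cultures, so p-values measure the spread between these samples, which may be technical.

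CXC chemokines are named for a pair of cysteines near the amino terminus that are set apart by another residue. CXCL1, CXCL2, CXCL3 and CXCL5 carry a glutamate-leucine-arginine (ELR) motif before these cysteines and attract neutrophils through the receptor CXCR2. CXCL9 and CXCL10 lack that motif, are classically induced by interferons and attract T cells and natural killer cells through CXCR3. CXCL12 holds haematopoietic cells and guides vessel growth through CXCR4, and the receptor ACKR3 removes it. CXCL16 is made as a transmembrane protein that binds CXCR6 on natural killer T cells patrolling the liver sinusoids, and it is released when the proteases ADAM10 and ADAM17 cut it. Transcription of several of these genes is driven by NF-kB, and AU-rich elements in the 3′ untranslated region shorten the life of some of the transcripts.

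Stretch libraries had higher levels of 4 of the 8 transcripts: Cxcl2, Cxcl1, Cxcl10 and Cxcl16, by 3.37-fold, 1.97-fold, 1.51-fold and 1.3-fold. None of the 8 was called lower, and Cxcl3, Cxcl5, Cxcl9 and Cxcl12 did not pass. A gene was called at a Benjamini-Hochberg adjusted p under 0.05 in edgeR's quasi-likelihood test over all 14222 genes tested, of which 44% were called, 21.4% higher and 22.6% lower. The median log2 fold change (stretch over control) of the 8 genes was 0.53, against -0.01 over all genes tested. Only Cxcl2 was both called and at least 2-fold higher, as were 2.46% of genes tested. The ranges of the stretch libraries lay wholly above those of the control libraries for Cxcl1, Cxcl2, Cxcl5 and Cxcl16, as they did for 26.7% of genes tested, and lay wholly below them for none of the 8, against 29.2% of genes tested.

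**Figure D1:**
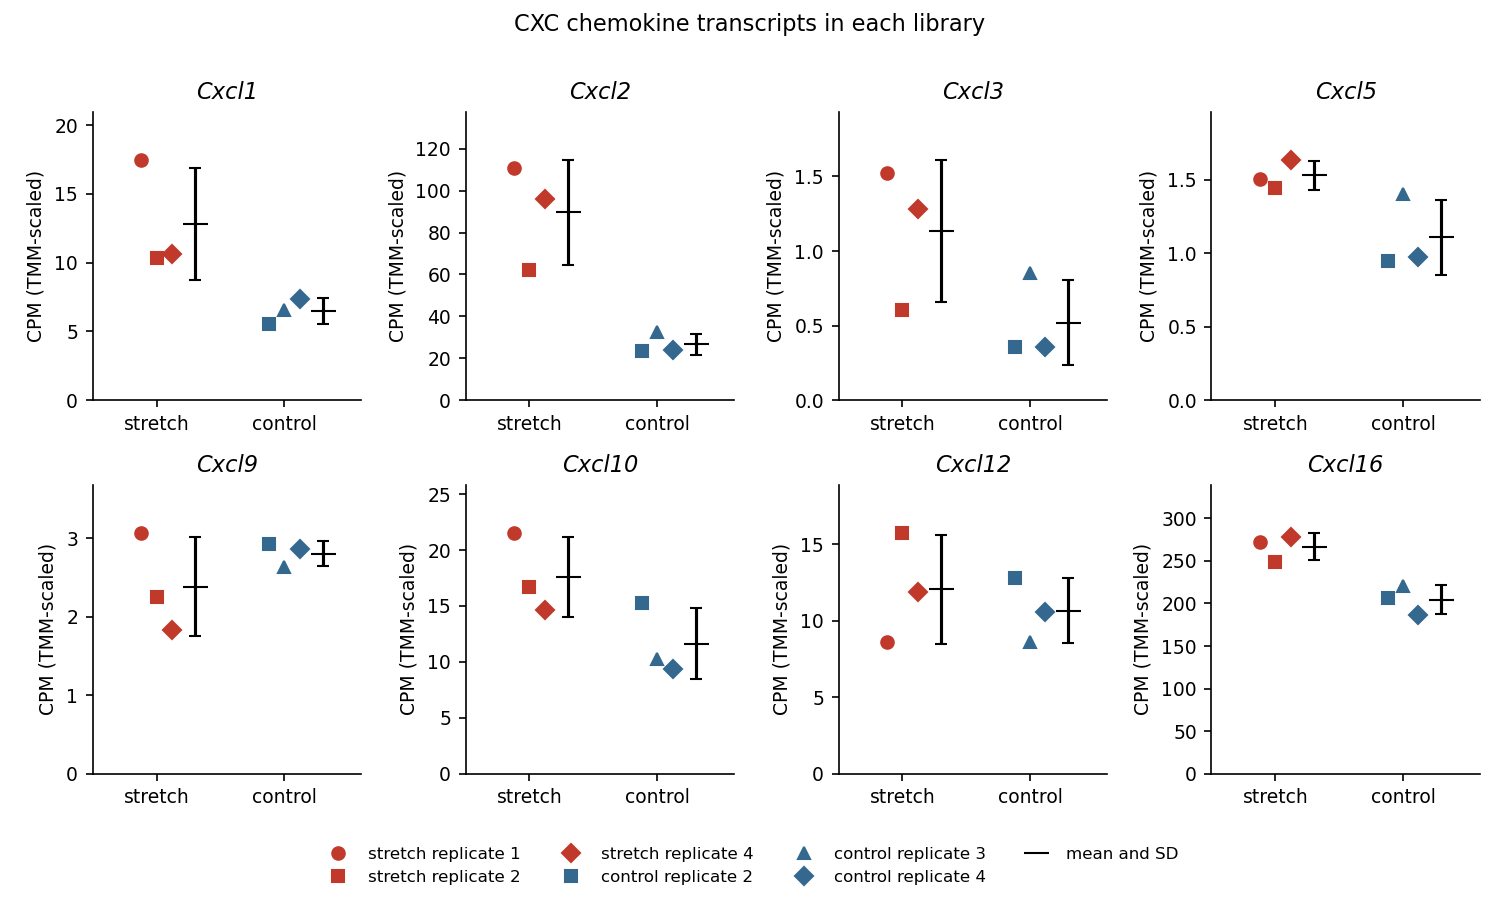
CPM (counts scaled by library size and trimmed mean of M values, vertical axis from 0) of each CXC chemokine transcript in the 3 stretch and 3 control libraries; symbols mark the replicate number, and the black bar gives the mean and SD of the group. Stretch libraries lie above control libraries without overlap for Cxcl1, Cxcl2, Cxcl5 and Cxcl16, and the groups overlap for Cxcl3, Cxcl9, Cxcl10 and Cxcl12.

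The promoters of 4 of these genes are shown because each holds a sequence of the kB type, the kind of site that NF-kB binds, and because Cxcl10 also holds one of the type bound by interferon-activated factors. Each sequence runs from 250 bases before the start of the gene to 50 bases from it, 5′ to 3′ on the strand of the gene, and is taken from RefSeq (build GRCm38.p6). Capitals mark every match to GGGNNNTTCC (kB type), GAAANNGAAA (interferon-stimulated response element type) or TGANTCA (AP-1 type) on either strand.
Cxcl2, chr5:90903649-90903948, plus strand: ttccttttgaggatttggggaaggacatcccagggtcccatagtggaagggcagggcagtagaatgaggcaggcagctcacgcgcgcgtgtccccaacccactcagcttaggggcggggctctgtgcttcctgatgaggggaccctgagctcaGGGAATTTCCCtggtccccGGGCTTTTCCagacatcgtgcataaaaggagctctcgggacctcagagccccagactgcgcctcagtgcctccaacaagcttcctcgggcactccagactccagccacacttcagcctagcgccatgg
Cxcl1, chr5:90890995-90891294, plus strand: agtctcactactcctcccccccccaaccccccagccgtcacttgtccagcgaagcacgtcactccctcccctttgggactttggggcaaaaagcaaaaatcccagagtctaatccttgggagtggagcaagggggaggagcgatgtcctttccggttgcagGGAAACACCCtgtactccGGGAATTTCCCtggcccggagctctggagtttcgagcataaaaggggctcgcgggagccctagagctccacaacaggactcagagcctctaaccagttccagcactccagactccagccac
Cxcl3, chr5:90785851-90786150, plus strand: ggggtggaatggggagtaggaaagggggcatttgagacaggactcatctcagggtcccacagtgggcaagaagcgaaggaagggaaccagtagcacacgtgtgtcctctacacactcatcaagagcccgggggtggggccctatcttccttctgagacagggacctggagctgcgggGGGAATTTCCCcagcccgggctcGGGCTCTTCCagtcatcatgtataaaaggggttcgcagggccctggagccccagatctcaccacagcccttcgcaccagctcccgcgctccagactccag
Cxcl10, chr5:92348840-92349139, minus strand: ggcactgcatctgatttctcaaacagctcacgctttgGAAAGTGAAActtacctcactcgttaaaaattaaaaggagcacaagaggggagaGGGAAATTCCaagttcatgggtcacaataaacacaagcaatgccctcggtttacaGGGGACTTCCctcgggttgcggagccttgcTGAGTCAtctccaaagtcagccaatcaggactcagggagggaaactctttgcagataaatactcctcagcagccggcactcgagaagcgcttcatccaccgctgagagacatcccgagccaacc

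The 10 bases GGGAATTTCC occurred in the promoters of Cxcl1, Cxcl2 and Cxcl3, starting 71, 97 and 73 bases before the start of the gene. In each of these 3 promoters the next base was a C, so that the opposite strand matched as well, shifted by 1 base. Further kB-type matches were GGGCTTTTCC in Cxcl2, GGGCTCTTCC in Cxcl3 and, on the opposite strand of Cxcl1, the bases written GGAAACACCC on the strand of the gene. Cxcl10 held GGGAAATTCC and GGGGACTTCC, starting 159 and 104 bases upstream, GAAAGTGAAA starting 213 bases upstream, and the AP-1-type sequence TGAGTCA starting 74 bases upstream. Promoters of 6 of the 8 genes were matched by symbol, and the other 2 were those of Cxcl5 and Cxcl16. The Cxcl9 promoter matched only the AP-1 type, 31 bases after the start, and the Cxcl12 promoter matched none of the 3 motifs. The kB type was present in 4 of the 6 promoters, and in 6.2% of the 9952 promoters of tested genes (5.52% of all 27025). Of these 4, the promoters of Cxcl1, Cxcl2 and Cxcl3 share the same 10 bases and lie in the same cluster on chromosome 5. They are therefore not independent cases. The interferon-stimulated response element type was present in 2.96% and the AP-1 type in 5.45% of the promoters of tested genes. A match describes letters in this window and does not show that a factor bound there.

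The 3′ untranslated regions (3′ UTRs) of the same 3 ELR genes are dense in the pentamer AUUUA, the core of AU-rich elements. For each, the first 30-base window with the most pentamers is shown, written as DNA with the pentamers in capitals, from GENCODE M21 transcripts (GRCm38).
Cxcl2, bases 123 to 152 of the 3′ UTR: tATTTATTTAtctatgtATTTATTTATTTA
Cxcl1, bases 79 to 108 of the 3′ UTR: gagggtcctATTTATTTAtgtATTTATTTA
Cxcl3, bases 181 to 210 of the 3′ UTR: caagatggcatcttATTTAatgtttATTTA

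Overlapping pentamers were each counted, and each share of genes of like length includes the gene itself. The Cxcl2 3′ UTR held 11 pentamers in 734 bases, and 0.1% of the 969 tested genes with a 3′ UTR within 100 bases of that length held at least as many. Cxcl1 held 7 in 592 bases, a number reached by 0.3% of 1194 genes of like length. Cxcl3 held 5 in 645 bases, reached by 3.3% of 1107 genes, and Cxcl5 held 5 in 1111 bases, reached by 9.6% of 752 genes. The 4 ELR genes thus lay above the median of 1 pentamer in genes of like 3′ UTR length. Cxcl10, with 2, also lay above its median of 1. The genes outside the ELR group were nearer to genes of like length. Cxcl10 held 2, Cxcl16 held 2, Cxcl9 held 3 and Cxcl12 held 4. These numbers were reached by 34%, 60.1%, 72.1% and 76% of genes of like length. These are descriptions of the annotated transcripts, and the life of the transcripts was not measured.

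**Figure D2:**
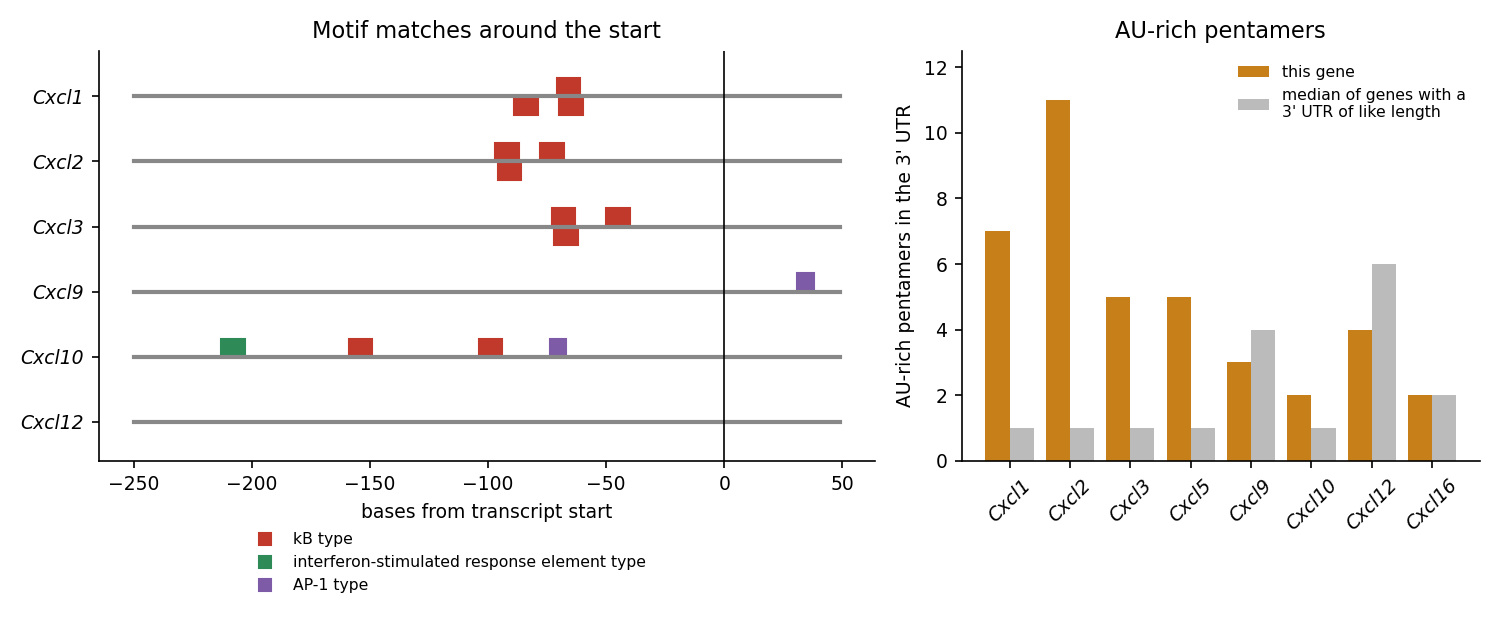
Left, positions of motif matches along the 6 promoters, in bases from the start of the gene; boxes above a line lie on the strand of the gene and boxes below it on the opposite strand. Right, number of AU-rich pentamers in the 3′ UTR of each gene (orange) beside the median of tested genes with a 3′ UTR within 100 bases of its length (grey); Cxcl2 had 11 and Cxcl1 had 7, against a median of 1.

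Total gene counts were between 58503669 and 68489956 in stretch and between 48948948 and 57923937 in control libraries. The median log2 fold change of all genes was -0.11 with library size alone as scaling, and 2091 of the 6390 genes then called were higher, against 3040 of 6261 with trimmed mean of M values scaling. The 8 genes kept their direction under each of the 4 scalings tried. The cells carried the markers of their label: Stab2, a scavenger receptor of sinusoidal endothelium, had 1362 to 1658 CPM in stretch and 1707 to 1840 CPM in control libraries. Over all genes tested, 21.4% were called higher and 22.6% lower, the shares against which the marker counts here are to be read. Of 10 sinusoidal markers 8 were called lower after stretch, and their summed level was 5813 to 6754 CPM in stretch and 7962 to 9064 CPM in control libraries. Of 10 tested macrophage markers 9 were called higher, with a summed level of 113 to 158 CPM in stretch and 79.3 to 94.3 CPM in control libraries. Cd68, the tested macrophage marker that was not called (edgeR adjusted p = 0.0549), gave the largest part of that sum. It had 92.13, 67.73 and 85.65 CPM in the stretch libraries, against 66.16, 71.61 and 62.99 CPM in the control libraries, so its groups overlapped. The largest log2 fold change of the macrophage list was 3.25 ± 0.53 for Marco, a scavenger receptor of macrophages (edgeR adjusted p = 0.00156), followed by Vsig4, C1qa and Cd5l at 2.71, 2.52 and 2.20. Of the 2 listed macrophage markers too scarce to test, Clec4f had 22 counts in stretch replicate 1 and 0 to 4 in each other library, and Timd4 had 0 to 3 in each. Of 5 cholangiocyte markers 3 were called higher (Epcam, Sox9 and Spp1), and the list summed to 141 to 166 CPM in stretch and 80.9 to 107 CPM in control libraries, with no overlap. None of 9 tested stellate cell and fibroblast markers was called, and that list summed to 87.3 CPM in stretch replicate 2 and to 55.9 and 56.3 CPM in the other stretch libraries, against 66.5 to 70.8 CPM in control libraries. Hepatocyte markers, of which 8 of 10 were called higher, summed to 486 CPM in stretch replicate 1 and to 92.7 to 96.3 CPM in the other stretch libraries, against 31.4 to 70.8 CPM in control libraries. Neutrophil markers summed to 0.46 to 0.84 CPM in stretch and 0.4 to 0.66 CPM in control libraries, with S100a9, Mpo and Retnlg at 0 counts in each. In such a bulk sample, more cells of a type and more RNA per cell cannot be told apart, and the part of other cell types in the values below was not tested.

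Levels per library are given as CPM, counts scaled by library size and trimmed mean of M values, and gene positions are those of the deposited table (GRCm38). Among the neutrophil attractants, Cxcl2 (chromosome 5, 90903899 to 90905938) changed most. It had 111, 61.97 and 96.1 CPM in stretch replicates 1, 2 and 4, against 23.5, 32.4 and 24.01 CPM in control replicates 2, 3 and 4. The lowest stretch library was 1.91 times the highest control library. Cxcl2 rose by 1.75 ± 0.21 on the log2 scale (± SE, here and for all log2 changes, n = 3 libraries per group; edgeR adjusted p = 0.000351), a larger log2 fold change than that of 98.9% of genes tested. Stretch replicate 2 was the lowest of its group. It had the lowest summed macrophage markers of its group (113 CPM, against 158 and 138 CPM in replicates 1 and 4). It also had the highest summed stellate cell and fibroblast markers (87.3 CPM, against 56.3 and 55.9 CPM in replicates 1 and 4). Without stretch replicate 1, in which hepatocyte and macrophage markers were highest, the log2 fold change of Cxcl2 was 1.58 (edgeR adjusted p = 0.000766). The part of other cell types in the Cxcl2 level was not tested.

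Cxcl1 (chromosome 5, 90891245 to 90893115), the mouse chemokine also called KC, had 17.5, 10.3 and 10.6 CPM in the stretch libraries, against 5.52, 6.56 and 7.38 CPM in the control libraries. The groups did not overlap, but stretch replicate 1 stood well above the other 2 stretch libraries, which were close to each other. Cxcl1 rose by 0.98 ± 0.21 on the log2 scale (edgeR adjusted p = 0.00606). The change was 0.70 without stretch replicate 1 (edgeR adjusted p = 0.00501) and passed in each of the 6 fits that left 1 library out. Cxcl2 exceeded Cxcl1 more in stretch than in control libraries: on the deposited per-length scale the ratio of Cxcl2 to Cxcl1 was 5.56, 5.26 and 7.94 in the stretch libraries, against 3.73, 4.33 and 2.85 in the control libraries. This ratio, chosen after its values were seen and free of library scaling, gave an exact two-sided permutation p of 0.1, the smallest that 3 against 3 can give.

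Cxcl3 (chromosome 5, 90786103 to 90788090) was scarce. It had 85, 41 and 72 counts in the stretch libraries and 21, 43 and 19 counts in the control libraries, which is 1.52, 0.604 and 1.28 CPM against 0.356, 0.85 and 0.355 CPM. The groups overlapped, because stretch replicate 2 was low and control replicate 3 was high. The log2 fold change was 1.13 ± 0.47 (SE) and did not pass (edgeR adjusted p = 0.0844). It passed without control replicate 3 (log2 fold change 1.67, edgeR adjusted p = 0.0291), without stretch replicate 2 (1.45, edgeR adjusted p = 0.0335) and with DESeq2 (adjusted p = 0.0481). Of the 1060 windows of 50 bases in the Cxcl2 transcript, 61 occur unchanged in the Cxcl3 transcript, which has 967 such windows. Reads from these stretches cannot be assigned to either gene by sequence. Cxcl2 had between 1285 and 6191 counts in each library, and the part of such reads in the far scarcer Cxcl3 counts was not tested.

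Cxcl5 (chromosome 5, 90759299 to 90761625), whose mouse product is also called LIX, had 84, 98 and 92 counts in the stretch libraries and 56, 71 and 52 counts in the control libraries. On the CPM scale these were 1.51, 1.44 and 1.64 in the stretch libraries, against 0.948, 1.403 and 0.972 in the control libraries. The groups did not overlap, but the lowest stretch library was only 1.03 times the highest control library, replicate 3. On the deposited RPKM scale they overlapped, with 0.807, 0.8 and 0.878 RPKM in stretch libraries, against 0.536, 0.812 and 0.567 RPKM in control libraries. The log2 fold change of 0.47 ± 0.24 (SE) did not pass (edgeR adjusted p = 0.15).

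Cxcl1, Cxcl2, Cxcl3 and Cxcl5 lie in a cluster of 146640 bases on chromosome 5. The other chemokine genes between them were Pf4, Ppbp and Cxcl15. Pf4, which encodes platelet factor 4, had 143, 88 and 93 counts in stretch libraries, against 62, 59 and 60 in control libraries, and did not pass (log2 fold change 0.72 ± 0.28; edgeR adjusted p = 0.0688). Ppbp, another platelet chemokine gene, had 1 count in 1 stretch library and 0 in each other library, and Cxcl15 had 0 in all 6. Mthfd2l, a gene of folate metabolism and the next gene after Cxcl2, did not pass (0.19 ± 0.16 on the log2 scale; edgeR adjusted p = 0.369). Within this cluster the called genes were thus the pair Cxcl1 and Cxcl2, which are next to each other. Of 7 other CXC ligands looked for over the genome only Pf4 had enough counts to be tested, and Cxcl13, Cxcl14 and Cxcl17 had between 0 and 12 counts in each library.

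Of the CXCR3 ligands, Cxcl10 (chromosome 5, 92346639 to 92348889) had 21.5, 16.7 and 14.6 CPM in the stretch libraries, against 15.2, 10.3 and 9.34 CPM in the control libraries. Control replicate 2 lay above stretch replicate 4, so the groups overlapped. Cxcl10 rose by 0.60 ± 0.20 on the log2 scale (edgeR adjusted p = 0.0391). The call rested on single libraries: it was lost without control replicate 3 (edgeR adjusted p = 0.118), control replicate 4 (edgeR adjusted p = 0.127), stretch replicate 1 (edgeR adjusted p = 0.108) or stretch replicate 2 (edgeR adjusted p = 0.055), with library size alone (edgeR adjusted p = 0.0589) and with robust dispersion (edgeR adjusted p = 0.0749). Art3 spans Cxcl10 on the opposite strand, and without a stated strand setting reads of the pair cannot be told apart where they overlap. Art3 averaged 4.07 CPM in stretch and 5.35 CPM in control libraries, and its change of -0.39 ± 0.14 on the log2 scale lay close to the threshold (edgeR adjusted p = 0.053), passing in 5 of 9 fits with other settings and in 2 of 6 that left 1 library out (edgeR adjusted p between 0.0207 and 0.175).

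Cxcl9 (chromosome 5, 92321331 to 92328079), the neighbour of Cxcl10, had 3.07, 2.25 and 1.83 CPM in the stretch libraries, against 2.93, 2.63 and 2.86 CPM in the control libraries. Stretch replicate 1 was the highest of the 6 libraries and stretch replicate 4 the lowest. The log2 fold change of -0.24 ± 0.21 (SE) did not pass (edgeR adjusted p = 0.399). The ratio of Cxcl10 to Cxcl9 per length was 18.5, 19.5 and 21 in the stretch libraries, against 13.7, 10.3 and 8.63 in the control libraries, with no overlap (exact two-sided permutation p = 0.1, the smallest possible; this ratio was also chosen after its values were seen). Cxcl11, the remaining CXCR3 ligand and the next gene in the cluster, had 0 counts in the stretch libraries and 2 counts in control replicate 2 alone. Sdad1, a ribosome assembly gene beside Cxcl9 and no chemokine gene, was called higher (0.64 ± 0.05 on the log2 scale; edgeR adjusted p = 8.53e-05).

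Cxcl12 (chromosome 6, 117168535 to 117181368) had 8.62, 15.7 and 11.9 CPM in the stretch libraries, against 12.8, 8.598 and 10.6 CPM in the control libraries. The groups overlapped, with nearly the same lowest level and the highest level in stretch replicate 2. Its change of 0.18 ± 0.22 on the log2 scale did not pass (edgeR adjusted p = 0.542), and the sign changed without stretch replicate 2 (-0.048, edgeR adjusted p = 0.864). That library also had the highest summed stellate cell and fibroblast markers of the 6 (87.3 CPM), and their part in the Cxcl12 level was not tested.

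Cxcl16 (chromosome 11, 70454234 to 70459984) had the highest level per length of the 8 genes in both groups. On the CPM scale it had 273, 248 and 279 CPM in the stretch libraries, against 206, 221 and 187 CPM in the control libraries. The groups did not overlap, though the change was small, 0.38 ± 0.07 on the log2 scale (edgeR adjusted p = 0.00303), and it passed in each fit that left 1 library out. Zmynd15 overlaps Cxcl16 on the opposite strand and averaged 66.5 CPM in stretch and 63.6 CPM in control libraries (log2 fold change 0.06 ± 0.05; edgeR adjusted p = 0.365).

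**Figure D3:**
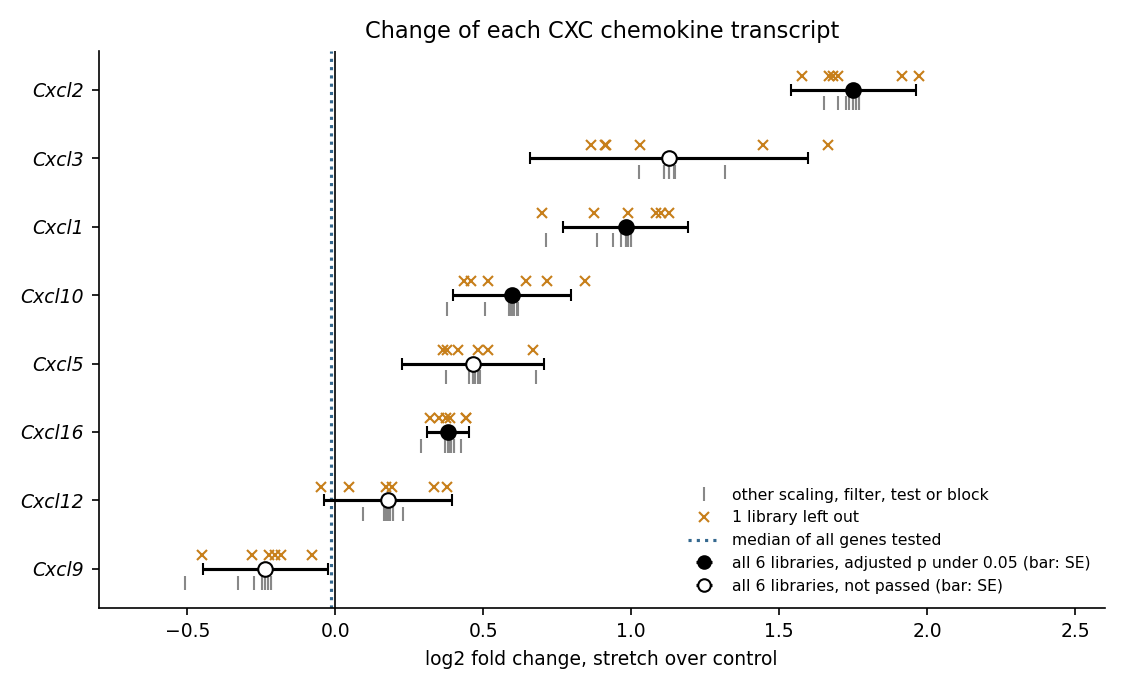
Log2 fold change of stretch over control (horizontal axis) for each CXC chemokine gene, with its SE, from all 6 libraries (filled circles passed, open circles did not), with 1 library left out (crosses) and under other settings (ticks). Cxcl1, Cxcl2, Cxcl3, Cxcl5, Cxcl10 and Cxcl16 stay right of 0 in each fit that tested them, and Cxcl9 stays left of it. The crosses of Cxcl12 fall on both sides of 0.

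Levels were compared between genes on the deposited RPKM scale, which divides reads by the deposited coding length and by library size. Despite its name, that length includes untranslated bases. It was 949 bases for Cxcl1 and 7161 for Cxcl12, whose GENCODE transcript of 5627 bases holds a 3′ UTR of 5188. Cxcl16 led in both groups, with 97.7 ± 4.14 RPKM in stretch and 79.7 ± 6.4 RPKM in control libraries (SD, n = 3 per group). Cxcl2 followed with 74.02 ± 19.6 RPKM in stretch and 23.5 ± 4.53 RPKM in control libraries, and its highest stretch library (90.9 RPKM) nearly reached the lowest of Cxcl16 (93.1 RPKM). Cxcl10 had 14.3 ± 2.81 RPKM in stretch and 10.04 ± 2.56 RPKM in control libraries, and Cxcl1 had 12.1 ± 3.7 RPKM in stretch and 6.52 ± 1.04 RPKM in control libraries. These 2 overlapped in the stretch libraries and were separate in the control libraries. The other 4 genes were between 0.328 and 2.02 RPKM in each library. In stretch libraries their neighbours in the order Cxcl12, Cxcl3, Cxcl5 and Cxcl9 all overlapped. In control libraries the order was Cxcl12, Cxcl9, Cxcl5 and Cxcl3, and only Cxcl5 and Cxcl3 overlapped.

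Cxcl2 took 39.9%, 30.2% and 38.3% of the summed RPKM of the 8 genes in stretch libraries, against 16.8%, 21.3% and 18.8% in control libraries. Cxcl16 took 43.4%, 53.6% and 49.2% in stretch libraries, against 65.1%, 64.4% and 64.6% in control libraries. The 4 ELR genes together made up 48.1%, 36.8% and 44.1% of the sum in stretch libraries, against 22%, 27.5% and 26.1% in control libraries.

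**Figure D4:**
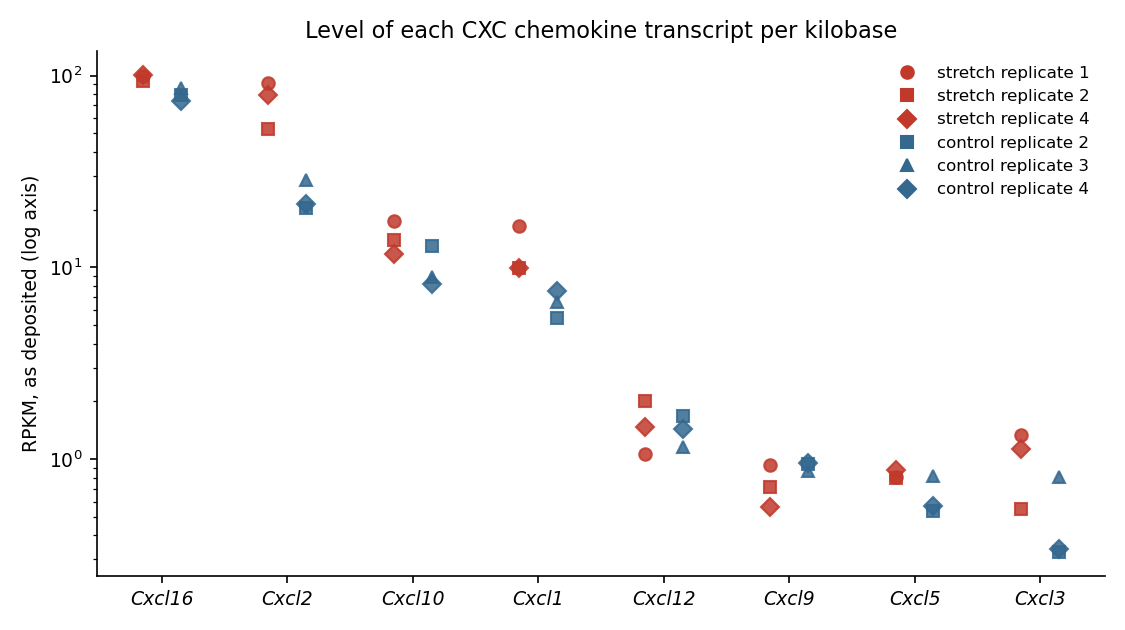
Deposited RPKM of each CXC chemokine gene in each library on a log axis, ordered by the control mean, with stretch libraries left of control libraries. Cxcl16 lies highest in both groups, Cxcl2 stands between 52.5 and 90.9 RPKM in stretch and between 20.3 and 28.7 RPKM in control libraries, and Cxcl12, Cxcl9, Cxcl5 and Cxcl3 lie near 1 RPKM.

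The receptors of these chemokines were mostly scarce in the same libraries. Cxcr4, the signalling receptor of CXCL12, was the exception, with 69, 92.6 and 57.96 CPM in stretch libraries, against 87.4, 73.5 and 126 CPM in control libraries (log2 fold change -0.39 ± 0.21; edgeR adjusted p = 0.18). Ackr3, the scavenging receptor of CXCL12, listed under its older symbol Cxcr7, had 4.55, 5.86 and 3.65 CPM in stretch libraries, against 9.65, 6.17 and 11.4 CPM in control libraries. The groups did not overlap, and Ackr3 fell by 0.95 ± 0.24 on the log2 scale (edgeR adjusted p = 0.0132). That call was lost without control replicate 2 (edgeR adjusted p = 0.0512), control replicate 4 (edgeR adjusted p = 0.0525) or stretch replicate 4 (edgeR adjusted p = 0.0514). Cxcr2, the receptor of the ELR chemokines, had 11, 11 and 9 counts in stretch libraries, against 12, 4 and 9 in control libraries. Cxcr3 had 25, 25 and 12 counts in stretch libraries, against 30, 23 and 37 in control libraries, and did not pass (edgeR adjusted p = 0.186). Cxcr6 had between 0 and 9 counts in each library, and Cxcr1 had none. Of 5 receptors and decoys tested, 1 fell, 0 rose and 4 did not pass, with a median log2 fold change of -0.68; 1 of 5 is near the 22.6% of all genes tested that were called lower.

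Among 12 genes of chemokine processing and presentation, 3 rose, 4 fell and 5 did not pass, with a median log2 fold change of 0.02. Over all genes tested 21.4% were called higher and 22.6% lower, which is near the shares of this list. Sdc4 and Sdc1, heparan sulfate proteoglycans of the cell surface that can bind chemokines, rose by log2 fold changes of 0.51 ± 0.08 and 0.90 ± 0.19 (edgeR adjusted p = 0.00138 and 0.00577). Ext2, an enzyme of heparan sulfate synthesis, fell by 0.28 ± 0.05 on the log2 scale (edgeR adjusted p = 0.00193). Ext1, on the same list, rose by 0.20 ± 0.07 on the log2 scale (edgeR adjusted p = 0.0355). Adam10, which sheds CXCL16, averaged 258 ± 11.7 CPM in stretch and 301 ± 6.24 CPM in control libraries and fell by 0.22 ± 0.05 on the log2 scale (edgeR adjusted p = 0.00608). Adam17, the other sheddase, did not pass (0.06 ± 0.06 on the log2 scale; edgeR adjusted p = 0.45), and its sign changed with library size alone as scaling.

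NF-kB genes were mostly higher, with 13 of 16 called higher (21.4% over all genes tested), 0 lower and a median log2 fold change of 0.63. Tnip1, an inhibitor of NF-kB signalling, had 538, 480 and 514 CPM in stretch libraries, against 219, 244 and 249 CPM in control libraries (log2 fold change 1.10 ± 0.07; edgeR adjusted p = 4.6e-05). Nfkbib, encoding the inhibitor IkB beta, and Nfkb2, encoding the p100 precursor, rose by log2 fold changes of 0.72 ± 0.05 and 0.68 ± 0.05 (edgeR adjusted p = 5.3e-05 and 6e-05). Of 18 tested genes on a list of cytokines, receptors and related proteins, 9 rose, 5 fell and 4 did not pass, with a median log2 fold change of 0.29. Over all genes tested, 21.4% were called higher and 22.6% lower. Il1a, which encodes interleukin-1 alpha, had 12.2, 8.97 and 11.8 CPM in stretch libraries, against 2.64, 3.62 and 3.76 CPM in control libraries (log2 fold change 1.72 ± 0.17; edgeR adjusted p = 0.000162). Tlr4, the receptor for endotoxin, rose by a log2 fold change of 0.62 ± 0.06, and Tnfrsf1a, a receptor for tumour necrosis factor, fell by 0.36 ± 0.05 on the log2 scale (edgeR adjusted p = 0.000106 and 0.000472). Summed macrophage markers were 113 to 158 CPM in stretch and 79.3 to 94.3 CPM in control libraries. Hepatocyte and cholangiocyte sums were also higher in the stretch libraries, and the part of these cell types in the levels of both lists was not tested.

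Of 20 interferon genes tested, 8 fell, 3 rose and 9 did not pass, with a median log2 fold change of -0.15, against 21.4% called higher and 22.6% lower over all genes tested. Ifit3, an interferon-induced antiviral gene, had 5.22, 3.92 and 3.97 CPM in stretch libraries, against 10.8, 11.4 and 10.4 CPM in control libraries (log2 fold change -1.32 ± 0.13; edgeR adjusted p = 0.000157). Oasl2, another interferon-induced gene, and Stat2, a transducer of type I interferon signals, fell by 0.97 ± 0.10 and 0.57 ± 0.05 on the log2 scale (edgeR adjusted p = 0.000166 and 0.00013). Other genes of the list did not fall. Irf8, Ifngr1 and Ifngr2 were called higher, by log2 fold changes of 0.55, 0.38 and 0.15 (edgeR adjusted p = 0.000932, 0.00041 and 0.0256). Isg15, Irf7, Ifit1 and Rsad2 did not pass (log2 fold changes 0.42, 0.04, -0.08 and -0.15). Cxcl10, whose call held in 2 of 6 fits that left 1 library out, thus rose in libraries in which Ifit3, Oasl2 and Stat2 fell. The reason was not tested.

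Of 7 genes of mRNA decay and stabilisation, 4 rose, 1 fell and 2 did not pass, with a median log2 fold change of 0.30. Over all genes tested, 21.4% were called higher and 22.6% lower. Zfp36, encoding tristetraprolin, which binds AU-rich elements and hastens decay, had 82.03, 62.4 and 73.9 CPM in stretch libraries, against 36.5, 33.96 and 34.4 CPM in control libraries (log2 fold change 1.06 ± 0.09; edgeR adjusted p = 9.9e-05). Elavl1, encoding HuR, which stabilises such transcripts, rose by a log2 fold change of 0.42 ± 0.04, and Hnrnpd, encoding the AU-binding protein AUF1, rose by 0.30 ± 0.04 (edgeR adjusted p = 0.000204 and 0.00101).

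**Figure D5:**
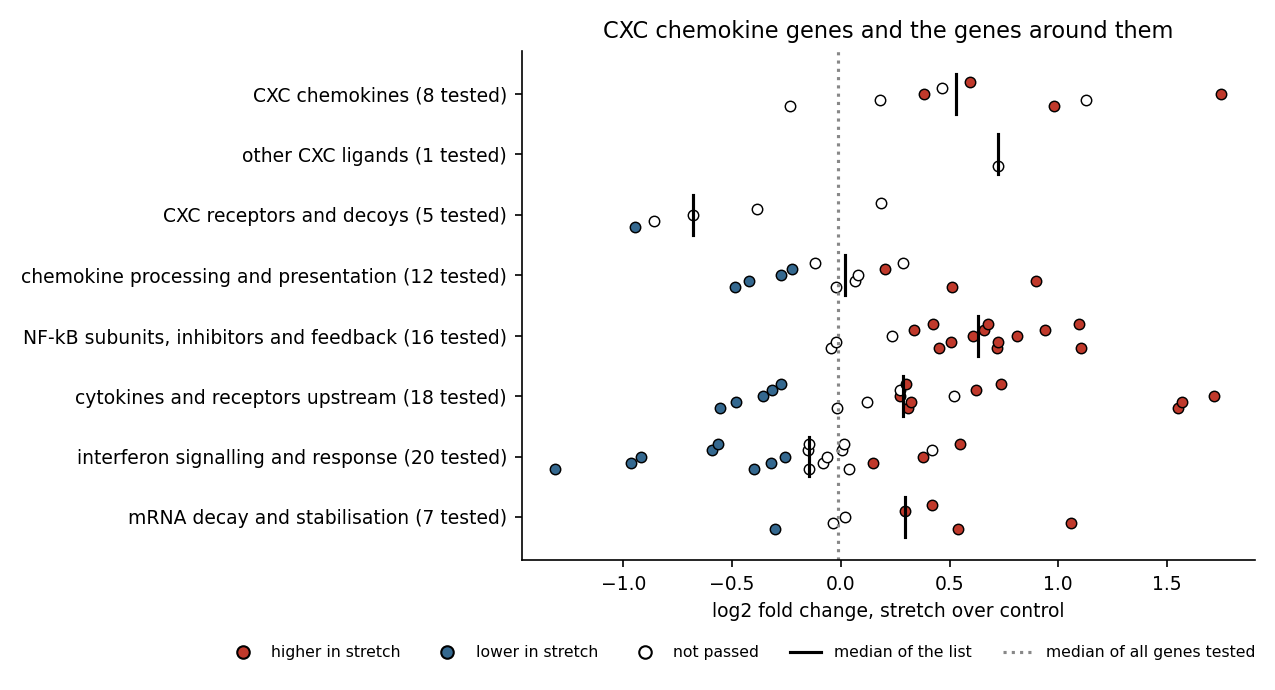
Log2 fold change of stretch over control (horizontal axis) for each tested gene of the CXC chemokines and of 7 related lists; red marks genes called higher, blue genes called lower and white genes that did not pass, and black bars give list medians. The CXC chemokines and the NF-kB list have medians of 0.53 and 0.63, the interferon list one of -0.15, and the dotted line marks the median of all genes tested.

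The genes most like 7 of the 8 chemokine genes were found by the root mean square difference of log2 CPM over the 6 libraries, after each gene was centred at its own mean. This is a description over libraries that fall into 2 groups. Cxcl2 was followed most closely by Olr1, Cdk6 and Lancl3, at differences of 0.127, 0.134 and 0.149. Cxcl1 was followed by AA467197, Baiap2l1 and Smoc1, at 0.103 to 0.115, and Cxcl3 by Anxa1, Amz1 and Cyp3a13, at the wider differences of 0.29 to 0.332. Cxcl10 was nearest to Ctss, Mylk and Hspb8, at 0.135 to 0.158, and Cxcl9 to Cmpk2, H2-T23 and Pfn2, at 0.0722 to 0.101. Cxcl12 was nearest to Tpm2, Cryab and Irs2, at 0.0844 to 0.101, and Cxcl16 to Bcor, Xpo5 and Aff1, at 0.0194 to 0.0344. Among the 8 themselves the nearest pair was Cxcl5 and Cxcl16, at 0.141, and the farthest pair was Cxcl2 and Cxcl9, at 1.05. None of the 8 was among the 3 genes nearest to any of these 7.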

How the data were processed

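RNA sequencing counts were analysed for 3 stretch and 3 control libraries of primary mouse liver sinusoidal endothelial cells, grouped by the sample titles. The authors deposited a table of raw counts with 1 row per gene. TopHat2 2.1.0, featureCounts and edgeR are named in the submitters' processing notes with the GRCm38 (mm10) build; the annotation, the strand setting and the role of each tool: not given in the sources used here. RPKM values were deposited by the authors, per the file headers, and use the deposited coding length. The authors' deposited table also holds, per the file headers, log2 fold changes, a score (the likelihood ratio), and a p-value with its false discovery rate.

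Counts were tested with edgeR 4.0.16 (R 4.3.3): filterByExpr with default settings (14222 of 23337 genes), trimmed mean of M values (TMM) scaling and the quasi-likelihood F test, adjusted over all genes tested. CPM are TMM-scaled; the SE is the log2 fold change divided by the square root of F. Even values made up 67.2% to 69.9% of the counts from 1 to 10 in a library, and 49.6% to 50.9% of those from 1000 upward. No source used here says how mates of a pair were counted, so 2 counts may be 1 fragment and low counts less precise than their size. Log2 CPM for the likeness measure used a prior count of 2 and genes of at least 1 mean log2 CPM; it names the 3 nearest genes, predicted genes aside, and those of Cxcl5 are not reported here. From each related list the text names up to 3 called genes with the smallest p, plus the receptors and sheddases of the chemokines. Genes that neighbour or overlap a chemokine gene were added after their values were seen. So were Ext1 and the interferon genes named beside Ifit3, Oasl2 and Stat2. The members, lists and rules were chosen with earlier results of these data known, and the 3′ UTR count was added after them. Ly6g was not found. For each gene the GENCODE M21 coding transcript nearest in length to the deposited length was used. The alternatives were RLE, upper-quartile and library-size scaling, no filter, 1 CPM in 3 libraries, DESeq2 1.42.0, limma-voom (limma 3.58.1), robust dispersion, a block for the replicate number, and fits without 1 library each. The steps were run on simulated data with far fewer changed genes than were called here. That run therefore does not test the scaling for data with this many changes.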

Additional observations from a re-analysis of the deposited data

How the results depend on the processing

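Cxcl1, Cxcl2 and Cxcl16 kept their direction and their call under each of the 15 alternatives, and Cxcl5 and Cxcl9 kept their direction and did not pass in any. Cxcl10 no longer passed with library size only (log2 fold change 0.51, edgeR adjusted p = 0.0589) or with robust dispersion (0.60, edgeR adjusted p = 0.0749), and ranged from 0.43 to 0.84 with 1 library left out, passing in 2 of 6 such fits. Cxcl3 passed with DESeq2 (1.15, adjusted p = 0.0481) and with the replicate number as a block (1.32, edgeR adjusted p = 0.0346), and ranged from 0.86 to 1.67 with 1 library left out; the filter of 1 CPM in 3 libraries left it untested. Cxcl12 ranged from -0.048 to 0.38, negative only without stretch replicate 2. Signs also changed for Adam17 (-0.031) and Zmynd15 (-0.027) with library size only, and for Cxcr2 with the block (-0.21) and without control replicate 3 (-0.10; 0.47 without control replicate 2). The causes were not tested. Between 3 and 5 of the 8 chemokine genes were called higher, and 0 lower, under each alternative. Deviations from the group mean correlated across genes at 0.212 for libraries numbered 2 and 0.114 for those numbered 4, and the labels do not tie a number to a common isolation; with the block 5568 genes were called. Cxcl3, Cxcl5, Cxcr2 and Cxcr3 had fewer than 100 counts in each library, which limits their precision.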

Other observations

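In the authors' deposited table, which holds a likelihood ratio comparison of the same counts, the log2 fold changes of the 8 chemokine genes were between -0.24 for Cxcl9 and 1.75 for Cxcl2. Its false discovery rate was 1.79e-15 for Cxcl2, 1.67e-05 for Cxcl16, 0.000143 for Cxcl1 and 0.0213 for Cxcl10. The same column of the authors' deposited table gave 0.11 for Cxcl3, 0.339 for Cxcl5, 0.692 for Cxcl9 and 0.755 for Cxcl12. The 4 genes under 0.05 there are the 4 that passed in the quasi-likelihood test.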
